A study of Drosophila melanogaster with 24 samples.

Results

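The gene cwo (clockwork orange) is the gene named in the mutant allele of a series on fly heads, and it was taken by name, not by a threshold on a measured value, with earlier results of these data known. It is 1 of the 16722 genes of the deposited count table, and its 3 annotated transcripts are 3 of the 35411 in the transcript tables. Poly(A) RNA from heads of Drosophila melanogaster was compared between wild-type flies of the w1118 strain, which the titles give as the control, and flies of the cwo5073 mutant strain. For 3 days before collection all flies lived at 25 °C with 12 h of light and 12 h of darkness, and they were taken at zeitgeber time (ZT, hours after lights on) 2, 6, 10, 14, 18 or 22. Each of the 12 groups of genotype and time held 2 libraries. The age and sex of the flies, the molecular lesion of cwo5073 and any other allele carried by either strain are not stated in the sources used here. The treatment text names ZT2 and ZT14 only, and the titles, which name 6 times, were followed. Nothing states that the 2 libraries of a group came from separate cultures, so p-values measure the spread between these libraries, which may be technical.

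The circadian clock of the fly rests on a transcriptional loop in which the activators CLOCK and CYCLE bind E-box sequences and switch on per, tim, vri, Pdp1 and cwo around dusk. PER and TIM proteins then return to the nucleus and inhibit the activators, VRI and PDP1 control Clk, and CWO, a basic helix-loop-helix protein with an Orange domain, binds E-boxes itself and represses CLOCK-CYCLE targets, its own gene among them. The basic helix-loop-helix domain, which makes the DNA contact, lies in the amino-terminal part of such proteins. The study's title links CWO to the activators through the fly ortholog of CIPC, the gene CG31324.

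The gene lies on the plus strand of chromosome 3R from 10388258 to 10400752 (dm6), and the transcript tables give the same span for each of its forms. By exon number and length they match cwo-RA, cwo-RB and cwo-RC of the Ensembl annotation. All 3 forms begin with the same exon 1 of 1180 nt and end with the same exons of 322 and 3006 nt. They differ in what lies between. The form cwo-RA (4632 nt) has an exon 2 of 124 nt, from 10396697 to 10396820. The form cwo-RC (5092 nt) begins its exon 2 earlier, at 10396237, which adds 460 nt, and cwo-RB (4508 nt) has no such exon. The annotated reading frames differ too. In cwo-RA translation begins in exon 1, at 10389379, and gives 698 residues. In cwo-RB and cwo-RC the annotated start lies at 10397411, inside the 322 nt exon, and both give the same 621 residues, 77 fewer at the amino end. The exon 2 of cwo-RC is therefore annotated wholly as 5′ untranslated sequence, whereas that of cwo-RA is wholly coding.

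**Figure D1:**
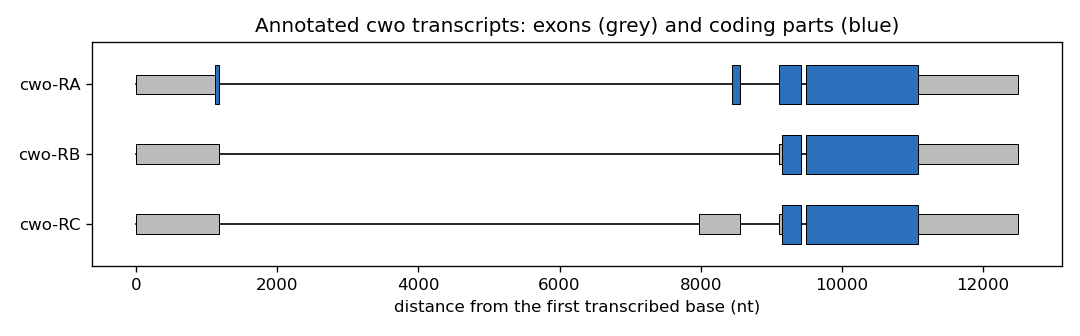
Exons (grey) and coding parts (blue) of the 3 annotated cwo transcripts along the gene, in nt from the first transcribed base. The coding part of cwo-RA starts in exon 1, and those of cwo-RB and cwo-RC start in the 322 nt exon.

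Library totals were 11319605 to 19638611 counts, with cwo at 512 to 2745 counts in wild type and 4219 to 16625 in the mutant. The tissue label fits the defining markers: summed photoreceptor markers (ninaE, trp, norpA, Arr2) stood at 46160.5 to 72982 CPM (counts scaled to the normalised library total). The 3 testis markers summed to at most 0.87 CPM and the 3 ovary markers to at most 1.37. Of the 24 libraries, bam was at 0 in 21, dj in 22, Mst87F in 14, osk in 21, vas in 8 and otu in 5. A pair of wild-type libraries stood apart. In ZT2 replicate 2 and ZT22 replicate 1, abundant genes with transcripts of at least 4000 nt were low against those of at most 1000 nt, by a median log2 deviation of -1.43 and -1.19. The other wild-type libraries lay at -0.54 to 0.35 and the mutant libraries at -0.35 to 0.67. ZT2 replicate 2 also had the lowest median Spearman correlation with the other libraries, 0.893. Since cwo transcripts are long, the main results on the transcript forms are given with and without this pair. The deviation of long against short transcripts was also high in part of the mutant libraries. Its median was 0.001 in wild type and 0.33 in the mutant (12 libraries each), and 6 mutant libraries lay above every wild-type one. These were the replicate 1 libraries of the mutant, and leaving out the pair does not remove this. Mutant replicate 2 libraries lay at -0.35 to 0.29, within the range of the wild-type libraries outside the pair. They held 242 to 826 cwo CPM, against at most 174 in wild type. The part of this deviation in the cwo difference was not tested.

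Counts of cwo were higher in the mutant at every time and stayed rhythmic in both genotypes, with the largest values after lights off. In wild type the 2 libraries of a time gave 55.5 and 57.9 CPM at ZT2, 76.7 and 73.9 at ZT6, 124 and 101 at ZT10, 174 and 151 at ZT14, 91.4 and 105 at ZT18, and 60.5 and 51.1 at ZT22. In the mutant they gave 273 and 265 CPM at ZT2, 285 and 242 at ZT6, 607 and 536 at ZT10, 912 and 826 at ZT14, 841 and 685 at ZT18, and 419.5 and 388 at ZT22. The lowest mutant library, at ZT6, thus held more cwo than the highest wild-type library, at ZT14. Of the 11095 genes tested, 0.82% had all 12 mutant libraries above all 12 wild-type ones.

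Averaged over the times, the log2 fold change was 2.44 ± 0.07 (SE; edgeR quasi-likelihood test, adjusted p = 8.8e-12), the smallest p of all tested genes, where 28% of genes were called. The gene FPKM table gave 2.33 ± 0.07 (limma on log2(FPKM + 1), adjusted p = 1.9e-12, with 24.1% of genes called). At single times the log2 fold change was 2.25 ± 0.18 at ZT2, 1.81 ± 0.17 at ZT6, 2.35 ± 0.18 at ZT10, 2.42 ± 0.18 at ZT14, 2.96 ± 0.18 at ZT18 and 2.86 ± 0.18 at ZT22, with adjusted p between 4.1e-07 and 6.0e-05. Called genes made up 14.5%, 0.829%, 1.26%, 0.811%, 0.757% and 1.16% of those tested at these times. As a ratio of mean CPM the mutant stood 3.50-fold above wild type at ZT6 and 7.78-fold above it at ZT18. In bulk heads, more cwo RNA per cell and more cells that express it cannot be told apart. Marker sums were compared by their ranges, which overlapped between genotypes for all 5 lists of head cell types. The 4 photoreceptor markers summed to 46160.5 to 60425 CPM in wild type and 59989 to 72982 in the mutant, and the 4 fat body markers to 2221 to 11880 and 4744 to 26786. The 3 neuron markers (elav, nSyb, brp) summed to 1126 to 1860 and 1565 to 2162 CPM, the 2 glia markers (repo, moody) to 42.2 to 129 and 100.4 to 135, and the 3 muscle markers to 2725 to 3754 and 1934 to 2956. Members of a list differed: mean elav was 233 CPM for wild type and 235 for the mutant, and mean norpA was 2900.3 and 2714, whereas mean trp was 3856 and 5805. No marker of these 5 lists was at 0 in any library. Their part in the cwo difference was not tested.

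Both genotypes were highest at ZT14, and mean CPM varied 2.92-fold over the day in wild type and 3.30-fold in the mutant. In CPM the swing between the highest and the lowest time was 107 in wild type and 606 in the mutant. At ZT18 the mutant still held 87.8% of its ZT14 mean, and wild type 60.3%. At ZT22 the values were 46.5% and 34.3%, and at ZT6, on the rising side, they were 30.3% in the mutant and 46.3% in wild type. Wild type had its lowest mean at ZT22 (55.8 ± 6.7 CPM, SD, n = 2) and the mutant at ZT6 (263 ± 31, n = 2).

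A 24 h curve fitted to log2 CPM placed the peak at ZT 13.1 ± 0.4 in wild type and at ZT 15.2 ± 0.2 in the mutant (SE, n = 12 libraries each). The fitted peak of the mutant lay 2.14 ± 0.43 h after that of wild type (SE; 95% interval 1.23 to 3.05 h), with samples 4 h apart. The amplitude, from the mean to the peak of the curve, was 0.76 ± 0.07 in wild type and 0.95 ± 0.06 in the mutant on the log2 scale, a difference of 0.19 ± 0.09 (95% interval -0.0025 to 0.39). The rhythm passed in wild type (edgeR, adjusted p = 2.8e-06, with 5.62% of genes called) and in the mutant (adjusted p = 1.8e-07, with 1.09% called). Tested without a curve, the 6 times differed in each genotype (adjusted p = 2.5e-04 and 7.4e-05, with 2.23% and 0.631% of genes called).

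In the test of the difference in rhythm between genotypes cwo had rank 6 by p among 11095 genes and did not pass over all of them (edgeR, adjusted p = 0.562). That test called 0% of genes, 550 genes fell under 0.05 unadjusted, and DESeq2 called 9, with cwo among them (adjusted p = 0.00484). For the genotype by time interaction cwo had rank 17 (edgeR, adjusted p = 0.903, with 0% of genes called and 267 under 0.05 unadjusted), and DESeq2 called 26, with cwo among them (adjusted p = 0.00176). With edgeR a call of the interaction was gained without wild-type ZT2 replicate 1. That fit left ZT2 replicate 2, a library of the pair that stood apart, alone in its group. The share of genes called in it was not computed, so it does not add to the DESeq2 call. Without the pair of libraries that stood apart the wild-type peak was at ZT 13.1 ± 0.4 with an amplitude of 0.80 ± 0.09.

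In ascending order wild-type levels ran ZT22, ZT2, ZT6, ZT18, ZT10 and ZT14, and mutant levels ran ZT6, ZT2, ZT22, ZT10, ZT18 and ZT14. None of the 10 steps between neighbours in these orders passed over all genes (edgeR, adjusted p between 0.135 and 1), and 6 of them fell under 0.05 unadjusted. Called genes made up 0% to 0.559% of those tested at a step. The orders were read from the same values, so the sign of each step was fixed and these p-values only describe spread. The step from ZT10 to ZT14 in wild type was 0.54 ± 0.17 on the log2 scale, and that from ZT2 to ZT22 in the mutant was 0.59 ± 0.17. The lowest pair of times in each genotype differed by 0.02 ± 0.17 in wild type and by 0.03 ± 0.17 in the mutant.

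**Figure D2:**
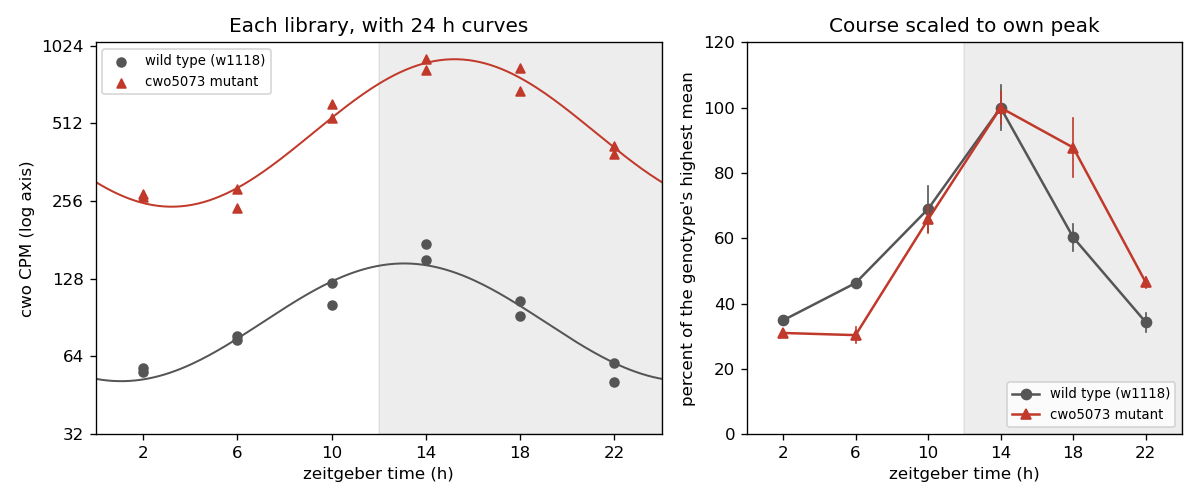
Left, cwo CPM (log axis) in each of 24 libraries against zeitgeber time, with the fitted 24 h curve of each genotype; right, mean CPM as a percent of the highest mean of the same genotype, with bars joining the 2 libraries. Grey marks darkness. All mutant points, from 242 CPM up, lie above all wild-type points, and at ZT18 the mutant stays at 87.8% of its peak against 60.3% in wild type.

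The transcript tables divided this signal differently in the genotypes. The form cwo-RA, the only one annotated with the longer protein, was the main form in most wild-type libraries and near 0 in the mutant. Its FPKM in wild type was 9.95 and 0 at ZT2, 10.9 and 5.29 at ZT6, 12.2 and 13.3 at ZT10, 23.7 and 18.7 at ZT14, 16.5 and 14.0 at ZT18, and 0 and 10.8 at ZT22. In the mutant no library exceeded 3.08 FPKM, at ZT10, and the median was 0.916. Thus 10 of 12 wild-type libraries lay above every mutant library, and the other 2, listed at 0, were the pair low in long transcripts. The share of all tested transcripts that separate the genotypes to this degree was not computed.

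Over all times cwo-RA was lower in the mutant by a log2 difference of -2.14 ± 0.43 on the log2(FPKM + 1) scale (limma, adjusted p = 0.00826, with 7.78% of 21548 transcripts called). With a pseudocount of 0.1 the difference was -2.69 and the call ended (adjusted p = 0.0737). Without the pair it was -2.72 (adjusted p = 1.4e-05). At no single time did cwo-RA pass with all libraries (differences of -0.89 to -3.17). Without the pair it gained calls at ZT2 (-3.03), ZT14 (-3.04) and ZT18 (-3.17). That fit left 1 wild-type library at ZT2 and 1 at ZT22, and the share of transcripts called in it was not computed. Within wild type the 24 h curve of cwo-RA peaked at ZT 13.1 ± 1.4, with an amplitude of 1.43 ± 0.51, and did not pass over all transcripts (limma, adjusted p = 0.177, with 0.636% called).

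The form cwo-RC, with the longer untranslated exon 2, carried nearly all of the signal in the mutant. Wild-type libraries held 1.83 and 6.36 FPKM at ZT2, 5.30 and 9.36 at ZT6, 4.81 and 7.56 at ZT10, 7.19 and 7.85 at ZT14, 2.91 and 3.37 at ZT18, and 7.12 and 0.411 at ZT22. Mutant libraries held 46.5 and 49.7 at ZT2, 50.9 and 43.6 at ZT6, 99.9 and 93.4 at ZT10, 161 and 157 at ZT14, 150.3 and 127 at ZT18, and 71.9 and 73.0 at ZT22. The lowest mutant library was above the highest wild-type library. The share of all tested transcripts that separate the genotypes so was not computed. The mutant values followed the order of the gene counts, which are sums over the transcript estimates and there consist almost wholly of cwo-RC.

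The log2 difference of cwo-RC was 3.92 ± 0.24 over all times (limma on log2(FPKM + 1), adjusted p = 1.3e-07). Without the pair low in long transcripts the difference was 4.25 over all times, 4.12 at ZT2 and 5.70 at ZT22. With all libraries the difference by time was 3.43 ± 0.59 at ZT2, 2.57 at ZT6, 3.79 at ZT10, 4.23 at ZT14, 5.07 at ZT18 and 4.44 at ZT22, the SE being that of ZT2. It passed at 5 of the 6 times, with 1.05%, 0.483%, 0.288%, 0.274% and 0.418% of transcripts called at ZT2, ZT10, ZT14, ZT18 and ZT22, and not at ZT6 (adjusted p = 0.13, with 0.297% called). Without single libraries of ZT2 or ZT10 the call at that time could end, while the difference moved little. The ZT2 call ended without mutant ZT2 replicate 1 (3.47, adjusted p = 0.0939) or replicate 2 (3.38, adjusted p = 0.0898). The ZT10 call ended without wild-type ZT10 replicate 1 (3.51, adjusted p = 0.094), mutant ZT10 replicate 1 (3.74, adjusted p = 0.0649) or mutant ZT10 replicate 2 (3.84, adjusted p = 0.0658), and with a pseudocount of 0.1 (3.98, adjusted p = 0.0558). At ZT6 a call was gained without wild-type ZT22 replicate 1 or replicate 2 (adjusted p = 0.00548 and 0.00534), with the difference unmoved at 2.57.

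The 24 h curve of cwo-RC in the mutant had a peak at ZT 15.3 ± 0.2, an amplitude of 0.95 ± 0.04 and 98.1% of the variance of log2(FPKM + 1) over 12 libraries. Its likeness to the curve of the gene is no separate result. Gene counts are sums over the transcript estimates, and cwo-RC held at least 92.1% of cwo FPKM in each mutant library. In wild type its peak was at ZT 9.9 ± 1.8 and the curve took 34.4% of the variance. Neither rhythm passed over all transcripts (limma, adjusted p = 0.279 for wild type and 0.218 for the mutant, where 0.636% and 0.0975% were called). Without the pair both did (limma, adjusted p = 0.00508 and 0.00637). The genotype by time interaction of cwo-RC did not pass with all libraries (limma, adjusted p = 0.983, with 0.172% of transcripts called). It gained a call without the pair, in a fit that left 1 wild-type library at ZT2 and 1 at ZT22. The shares of transcripts called without the pair were not computed.

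The shortest form, cwo-RB, which skips exon 2, was listed at 0 in 4 of 12 wild-type and 8 of 12 mutant libraries. It reached 7.58 FPKM in wild type, in ZT10 replicate 1, where the other ZT10 library stood at 0. In the mutant both ZT10 libraries held it, at 5.46 and 6.32 FPKM, and the ZT14 and ZT18 libraries were all at 0. No change was called for it over all times (-0.46 ± 0.44, limma, adjusted p = 0.531) or at any time, and the genotypes overlapped. Without the pair low in long transcripts the difference over all times was -0.16.

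**Figure D3:**
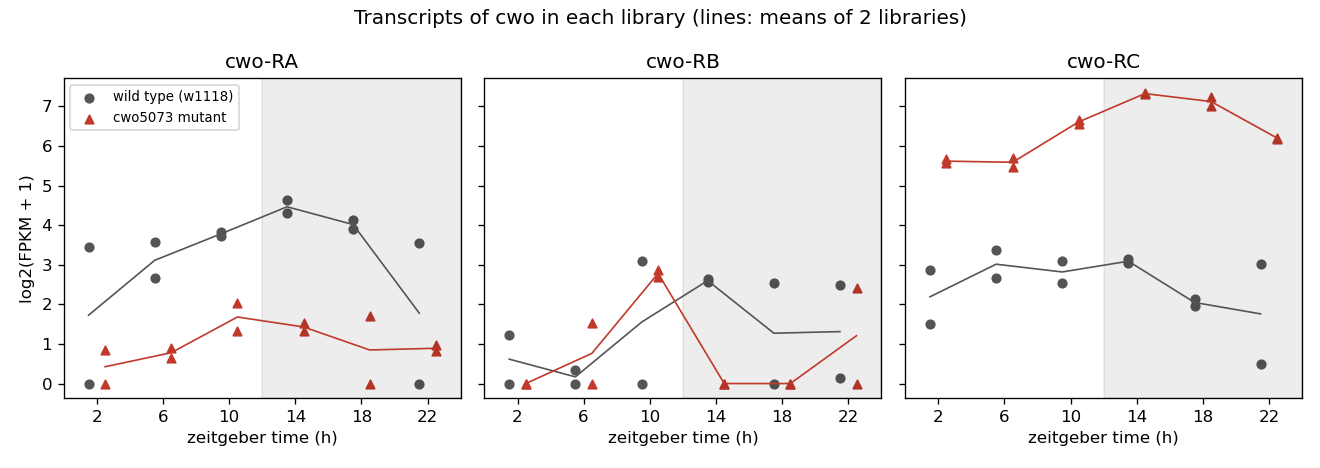
FPKM of each cwo transcript, as log2(FPKM + 1), in each of 24 libraries against zeitgeber time; lines join the means of 2 libraries, and grey marks darkness. Mutant points lie far above wild type for cwo-RC (43.6 FPKM and up against at most 9.36) and below most wild-type points for cwo-RA.

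As a share of the summed cwo FPKM, cwo-RC held 3.65% to 82.5% in wild type, with a median of 22.4%, and 92.1% to 100% in the mutant. The mean share was 32.4 ± 24% and 97.0 ± 3.1% (SD, n = 12), a difference of 64.6 percentage points (exact permutation test of genotype within times, two-sided, adjusted over 3 transcripts, adjusted p = 1.3e-04, with 12 of 12 mutant libraries above all wild-type ones). The share of cwo-RA fell by 54.5 points, from a mean of 55.8% to 1.26% (exact permutation test, adjusted p = 5.8e-04), and that of cwo-RB fell by 10.1 points, from 11.9% to 1.75% (exact permutation test, adjusted p = 0.0208). Shares sum to 100%, so the 3 tests are not independent, and a rise of cwo-RC alone lowers the other shares. The FPKM of cwo-RB itself had no called change over all times (-0.46, limma, adjusted p = 0.531). The wild-type division was uneven between replicates: cwo-RA took 84.5% and 0% at ZT2, 67.3% and 35.5% at ZT6, and 0% and 95.5% at ZT22, but 66.3% and 58.8% at ZT14. Without the pair of libraries low in long transcripts the change was 72.4 points for cwo-RC, -65.7 for cwo-RA and -6.79 for cwo-RB, and the cwo-RB call ended (exact permutation test, adjusted p = 0.0594).

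The mutant division held at all 6 times, with mean cwo-RC shares between 92.2% at ZT10 and 99.2% at ZT2. The forms overlap over 4508 nt, so the division rests on coverage of the 460 nt that cwo-RC alone holds, of the 124 nt exon and of the splice junctions. The sources used here do not state how the submitters' software weighed these.

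**Figure D4:**
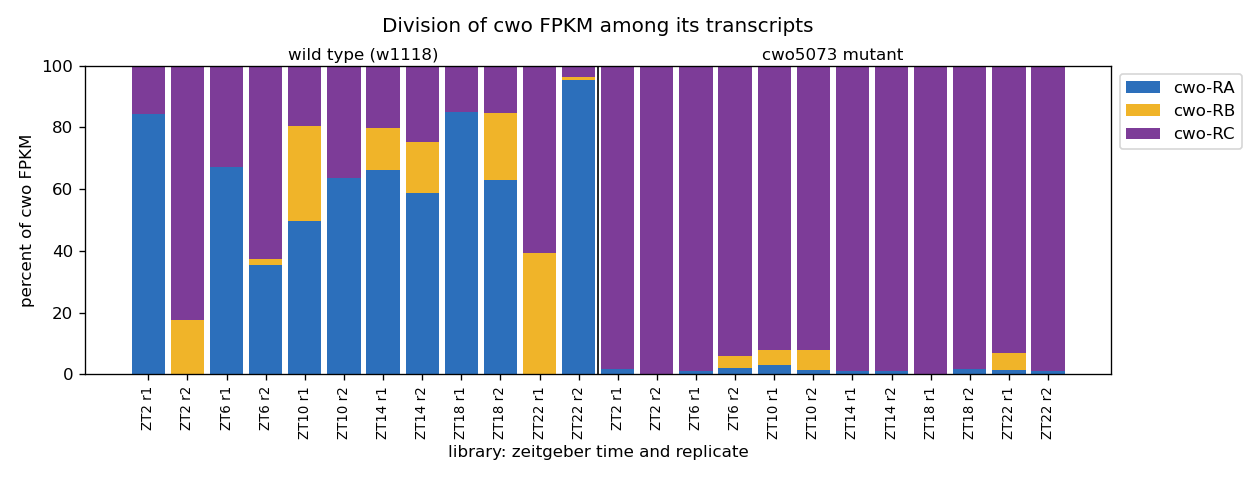
Percent of the summed cwo FPKM held by cwo-RA, cwo-RB and cwo-RC in each of 24 libraries, ordered by genotype, zeitgeber time and replicate (r1, r2). In the mutant cwo-RC takes 92.1% or more in every library, whereas wild-type replicates of ZT2, ZT6 and ZT22 disagree.

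Among the genes of the clock loop, 5 of the 18 measured beside cwo passed upward over all times and none downward (edgeR, adjusted over all genes, against 14.1% of all genes higher and 13.9% lower); they were tim, Clk, vri, CG31324 and the phosphatase subunit gene tws. Their changes, 0.21 to 0.65 on the log2 scale, were well under the 2.44 of cwo, and the median over the 18 was 0.07, against -0.01 over all tested genes. Leaving out 1 library gave 3 to 6 higher genes in place of 5. It was 3 without wild-type ZT6, ZT10 or ZT14 replicate 2, without wild-type ZT18 or ZT22 replicate 1, and without replicate 1 of the mutant at any of the 6 times, and 2 with transcript length offsets. Of the 18, 1 gene lay lower at an unadjusted p under 0.05, the kinase subunit gene CkIIalpha (-0.21 ± 0.08, edgeR, adjusted p = 0.07). DESeq2 called it (adjusted p = 0.0461), as did edgeR without wild-type ZT10 replicate 2, mutant ZT18 replicate 2 or mutant ZT22 replicate 2 (adjusted p = 0.0354, 0.0305 and 0.0271). Without wild-type ZT2 replicate 1 the phosphatase gene mts was called lower instead (-0.16, adjusted p = 0.0254).

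A 24 h rhythm was called in both genotypes for 6 of the 19 clock genes, cwo included. Of all tested genes, 5.62% were called in wild type and 1.09% in the mutant. The share of all genes called in both was not computed. For the other 5 of these clock genes the peak moved by less than its error. The repressor gene per peaked at ZT 13.5 ± 0.5 in wild type and at ZT 12.9 ± 0.3 in the mutant, a shift of -0.52 ± 0.57 h. The shift was -0.24 ± 0.44 h for tim, -0.08 ± 0.45 h for vri, whose product represses Clk, 0.57 ± 1.09 h for CG31324 and 0.09 ± 0.89 h for the activator gene Clk, which peaked near ZT 1. Whether the cwo shift differed from these was not tested. The fitted amplitude on the log2 scale was 1.60 ± 0.20 for per, 1.92 ± 0.15 for tim, 2.26 ± 0.21 for vri, 1.42 ± 0.29 for Clk and 0.39 ± 0.10 for CG31324 in wild type. In the mutant it was 1.33 ± 0.10, 1.25 ± 0.11, 1.23 ± 0.09, 1.17 ± 0.13 and 0.47 ± 0.05. The estimate was thus larger in the mutant for cwo and CG31324 and smaller for the other 4, but none of these genes passed the test of a difference in rhythm (edgeR, adjusted p between 0.562 for cwo and 0.935 for Clk).

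The genes whose course was most like that of cwo were listed in each genotype. Over the 12 wild-type libraries and 7931 genes whose log2 CPM averaged 3 or more, the highest Pearson correlations of log2 CPM with cwo were those of per (0.94), Inos (0.92), which encodes the inositol phosphate synthase, cyr (0.92), vri (0.92) and Ubpy (0.90). The lowest were those of Ugt35b (-0.90), CG31321 (-0.90) and Clk (-0.90). Over the 12 mutant libraries the highest were w (0.97), Bx (0.97), CG9634 (0.96), Gp210 (0.96) and Exn (0.95), and the lowest Chd64 (-0.93), laza (-0.93) and Cyp4g15 (-0.92). In the mutant the first 5 wild-type genes stood at 0.81 for per, 0.68 for Inos, 0.93 for cyr, 0.74 for vri and 0.42 for Ubpy, and the 3 lowest at -0.77 for Ugt35b, -0.84 for CG31321 and -0.82 for Clk. In wild type the 5 mutant genes stood at -0.16 for w, 0.39 for Bx, 0.44 for CG9634, 0.53 for Gp210 and 0.68 for Exn. The difference in correlation was not tested. These libraries share the time of day and their depth, and the values are descriptions.

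The first of these genes in the mutant, w, is the eye pigment transporter gene that is mutated in w1118 and that serves as the visible marker of many fly transgene insertions; the sources used here do not state whether cwo5073 carries one. In wild type w stood at 5.69 to 21.5 CPM. In the mutant the libraries gave 142 and 149 CPM at ZT2, 152 and 140.1 at ZT6, 264 and 239.6 at ZT10, 518 and 431 at ZT14, 516 and 354 at ZT18, and 242 and 173 at ZT22. All mutant libraries lay above all wild-type ones, as for 0.82% of tested genes. Mean w in the mutant, like mean cwo, was highest at ZT14, then ZT18, and low at ZT2 and ZT6.

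The ratio of w to cwo CPM stayed between 0.435 and 0.614 over the 12 mutant libraries, a 1.41-fold range, and ran from 0.0389 to 0.371 in wild type, a 9.55-fold range. The 24 h curve of w in the mutant peaked at ZT 15.5 ± 0.4 with an amplitude of 0.95 ± 0.09 on the log2 scale, against ZT 15.2 ± 0.2 and 0.95 ± 0.06 for cwo. The rhythm of w passed in the mutant (edgeR, adjusted p = 0.00314) and not in wild type (adjusted p = 0.452, r with cwo of -0.16). The test of the difference did not pass over all genes (edgeR, adjusted p = 0.23). What links the levels of w and cwo in the mutant was not tested.

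The genes beside cwo on the chromosome differed far less than cwo did. Both neighbours lie on the minus strand, and distances are to their nearer edge in coordinates. Rfx, which encodes a transcription factor, lies 10189 nt before cwo and went from 38.0 ± 5.2 CPM in wild type to 46.1 ± 6.3 in the mutant (SD, n = 12; log2 fold change 0.29 ± 0.09, SE; edgeR, adjusted p = 0.0239). CG6325 lies 2214 nt after cwo and went from 20.9 ± 4.2 to 24.4 ± 2.6 CPM (0.24 ± 0.09, adjusted p = 0.0605). Neither passed at any single time.

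**Figure D5:**
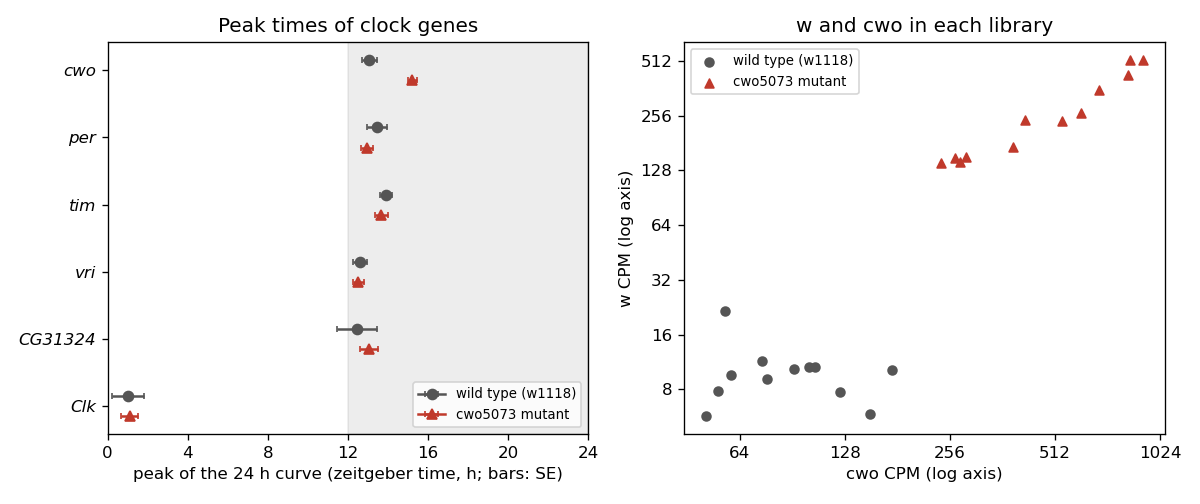
Left, time of the peak of the fitted 24 h curve (zeitgeber time, bars show SE) for cwo and the other 5 clock genes with a rhythm called in both genotypes; right, w CPM against cwo CPM (log axes) in each library. The cwo peak is at ZT 13.1 in wild type and ZT 15.2 in the mutant, and the 12 mutant libraries lie along a line of w against cwo.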

How the data were processed

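The members and lists were chosen with earlier results of these data known. Tools and build named in the submitters' processing notes are STAR 2.6.1d, StringTie, DESeq2 and dm6, without their roles. Expected counts make up the deposited gene table; all values of the 16722 genes compared equalled coverage times length over 75, rounded up per transcript and summed, so they are estimates. Per the file headers, each transcript table holds FPKM and per-base coverage, a signal left unscaled for depth; a gene FPKM table of 8489 genes was deposited too. The 5 gene names turned into dates were left out. Counts (11319605 to 19638611 per library) were tested with edgeR 4.0.16 in R 4.3.3 (filterByExpr, TMM, estimateDisp, glmQLFit on 12 groups, no replicate term), FPKM with limma 3.58.1 (trend, log2(FPKM + 1), transcripts at 1 FPKM or more in 2 libraries); p-values were adjusted by Benjamini-Hochberg over the whole table, with 0.05 as threshold. Rhythms used a cosine and a sine of 24 h per genotype; peak and amplitude came from least squares. Scripts were tested on simulated data. Within the mutant, libraries of the same replicate number deviated together at all 15 pairs of times (correlations 0.14 to 0.64), and within wild type at 3 of 15 over 0.1; a block within each genotype changed no call of cwo. The edgeR fits include a term for counting error, but the counts used are estimates from coverage rather than tallies of reads. Exons came from Ensembl release 115 (dm6 coordinates). Alternatives were DESeq2 1.42.0, its size factors, no filter, a replicate block, length offsets, another pseudocount and leaving out libraries. Named genes are cwo, its transcripts, 19 clock genes, the nearest tested genes, w, and the 5 most and 3 least correlated genes per genotype. Tables and figures were made with Python 3.11.15, pandas 2.3.3 and matplotlib 3.10.9.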

Additional observations from a re-analysis of the deposited data

How the results depend on the processing

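All tests of cwo at gene level kept direction and side of the threshold except the interaction (adjusted p = 0.00176 with DESeq2, 0.016 to 0.997 leaving out 1 library) and the rhythm difference (0.00484 with DESeq2). The log2 change over all times ran from 2.20 with length offsets to 2.48, and with length offsets it was 1.74 at ZT2 and 2.38 at ZT22. Leaving out 1 library gave 2.41 to 2.46. With the replicate block it was 2.44 and the rhythm difference had adjusted p = 0.336. The numbers do not pair the genotypes (correlations over 0.1 in 3 of 6 pairs), and the block changed no call of cwo. Replicate block within each genotype gave 1 lower clock gene, as did DESeq2 (leaving out 1 library, 0 to 1), and length offsets gave 3 higher with cwo counted. Leaving out 1 library each, cwo-RA differed by -3.03 to 0.42 at ZT2 and by -2.66 to 0.89 at ZT22, cwo-RB by -0.17 to 1.36 at ZT6, -0.32 to 2.78 at ZT10 and -1.31 to 1.11 at ZT22, and cwo-RC by 2.74 to 4.12 at ZT2, 2.22 to 2.93 at ZT6 and 3.51 to 4.07 at ZT10. With a pseudocount of 0.1 cwo-RA over all times was -2.69 and cwo-RC at ZT10 was 3.98, both no longer called. Without the pair low in long transcripts cwo-RA was called at ZT2 (-3.03), ZT14 (-3.04) and ZT18 (-3.17) and cwo-RC at ZT6 (2.57), for its interaction (adjusted p = 0.00815) and for its rhythms (0.00508 and 0.00637); cwo-RB at ZT22 turned to 1.08 and its share (-6.79 points, an alternative added after seeing the data) was no longer called. For these changes the cause was not tested, and the share of transcripts called without the pair was not computed. The division of reads among overlapping forms limits all transcript values.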

Other observations

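The gene FPKM that the authors deposited for cwo was lower than the sum of its transcript FPKM in all 24 libraries. The ratio was 0.827 to 0.888 in wild type and 0.898 to 0.906 in the mutant. The lowest ratio, 0.827, was that of wild-type ZT22 replicate 2, where cwo-RA held 95.5% of cwo FPKM. The highest, 0.906, was reached in mutant ZT18 replicate 1 and ZT2 replicate 2, where cwo-RC held 100%. The sources used here do not state how the gene values were computed. The log2 fold change of cwo from gene FPKM was 2.33 (limma) and 2.40 with a pseudocount of 0.1. The counts gave 2.44 with a different test (edgeR).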
